A study of Arabidopsis thaliana with 6 samples.

Results

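The *SPL* (*SQUAMOSA PROMOTER BINDING PROTEIN-LIKE*) genes that carry a target site for the microRNA miR156 were examined in inflorescences of the *bpcV* mutant and of wild type *Arabidopsis thaliana*. The 10 loci *SPL2*, *SPL3*, *SPL4*, *SPL5*, *SPL6*, *SPL9*, *SPL10*, *SPL11*, *SPL13A* and *SPL15* were taken by their locus identifiers out of the 32678 genes of each library. All 10 passed the filter on low counts, as did 20813 genes in all. RNA came from inflorescence apices that carried flowers up to stage 12, with 3 biological replicates of *bpcV* and 3 of wild type. The *bpcV* plants carried mutations in *BPC1* (allele *bpc1-2*), *BPC2*, *BPC3*, *BPC4* and *BPC6*, which encode BASIC PENTACYSTEINE factors that bind GA-rich DNA. Wild type was Columbia-0, and all plants grew untreated under 16 h of light and 8 h of dark.

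miR156 and its close relative miR157 are small RNAs that pair with *SPL* transcripts and lower the amount of SPL protein, by cleavage of the transcript or by block of translation. Their level is high in young shoots and declines as the plant ages, so that SPL proteins accumulate and the shoot passes to its adult and then to its flowering phase. In the inflorescence, SPL factors act on floral meristem identity, on the rate of organ initiation and on fertility. The short proteins SPL3, SPL4 and SPL5 form one group of close relatives, SPL9 and SPL15 another, and SPL2, SPL10 and SPL11 a further one.

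To show what the members share, the mature small RNAs and the matching windows of the transcripts were read from the RefSeq annotation of TAIR10.1. The mature miR156 and miR157 sequences below are printed with the seed, bases 2 to 8 from the 5′ end, in capitals. miR156a to miR156f were identical over their 20 bases. miR157a, miR157b and miR157c share 1 sequence of 21 bases, with an additional base at the 5′ end that shifts the seed.
miR156a to miR156f: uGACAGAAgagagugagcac
miR156g: cGACAGAAgagagugagcac
miR156h: uGACAGAAgaaagagagcac
miR157a to miR157c: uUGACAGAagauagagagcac
miR157d: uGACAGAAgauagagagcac

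The best window of each member is printed below in DNA letters of the transcript strand, with capitals for the letters that differ from the perfect complement of miR156a. A single sequence, with 1 mismatch, was found in *SPL2*, *SPL6*, *SPL9*, *SPL10*, *SPL11*, *SPL13A* and *SPL15*, and in each it lies in the last exon, within the coding sequence. In *SPL3*, *SPL4* and *SPL5* the window lies in the 3′ UTR, with 2, 2 and 3 mismatches, and the 3 sequences differ from each other.
*SPL15* (chr3:21444834-21444853 of TAIR10.1, minus strand) and the other members with a coding site: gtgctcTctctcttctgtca
*SPL3* (chr2:14305878-14305897, plus strand): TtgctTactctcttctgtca
*SPL4* (chr1:19807090-19807109, plus strand): CtgctcTctctcttctgtca
*SPL5* (chr3:5140598-5140617, minus strand): CCgctcTctctcttctgtca

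Of the 31346 genes with an annotated mRNA, 13 had a window with 3 mismatches or fewer, and 11 of these were the members and the second copy of *SPL13*. The *SPL* genes outside the list, *SPL1*, *SPL7*, *SPL8*, *SPL12*, *SPL14* and *SPL16*, had 6 to 8 mismatches in their best window. In *SPL4* the site was present in 1 of 3 RefSeq transcripts, and the values below are sums over the transcripts of a gene. At the sites of *SPL4* and *SPL9* the annotation places the loci miR156i (AT1G07867) and miR156j (AT2G09340) on the opposite strand, neither of which is among the genes of the deposited files. The string GAGAGAGA, searched on both strands in the 1000 bases before each annotated gene start, was found before *SPL3* and *SPL10* and not before the other members, while 14.9% of the 20451 tested genes with a position in the reference had it.

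Library totals ranged from 16196042 to 21455150 expected counts, the read counts that RSEM divides among genes. The genotype labels were checked with the mutated genes. *BPC1*, *BPC2* and *BPC6* had at most 2.60 TPM (a level per gene length, scaled to one total in every library) in *bpcV* libraries and at least 21.57 TPM in wild type libraries. *BPC4* had 35.23 to 36.26 TPM in *bpcV*, against 53.28 to 57.25 TPM in wild type, and *BPC3* was not reduced, with 5.91 to 7.30 TPM in *bpcV* and 3.71 to 5.81 TPM in wild type, so its transcript level does not check that allele. Of the markers of the labelled tissue, the meristem genes *STM*, *KNAT1* and *WUS* and the floral organ genes *AP3*, *PI*, *AG*, *STK*, *SHP1*, *SHP2* and *INO* were detected in every library, while *CLV3*, a stem cell gene of the meristem, was listed at 0 in all 6. Of 9 tapetum genes, 7 were tested and all 7 had negative log2 fold changes, with a median of -0.62 and a range from -1.24 in *AMS* to -0.34 in *CYP703A2*. The summed level of all 9 was 98.6 to 143.4 TPM in *bpcV* libraries and 145.4 to 261.1 TPM in wild type libraries. With edgeR's quasi-likelihood test 0 of the 7 were past an FDR of 0.01, 3 had an unadjusted p under 0.05 (28.3% over all genes tested), and DESeq2 called *AMS* and *A6* (8.72% over all genes).

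*SPL5* rose and *SPL15* fell in *bpcV*, and no other member passed the test. In *bpcV*, *SPL5* reached 2.30 times its wild type level and *SPL15* was left with 30.6% of its own. The genotypes were compared over all genes with the quasi-likelihood test of edgeR at a false discovery rate (FDR) of 0.01, and log2 fold changes are those of *bpcV* relative to wild type. In this comparison 809 of 20813 genes were called, 3.89% of those tested. The 2 members called out of 10 stand beside that share, with 1 of 10 higher (1.66% over all genes) and 1 of 10 lower (2.23% over all genes). The median log2 fold change of the 10 members was 0.17, against 0.01 over all genes. Since the libraries come from whole inflorescence apices, fewer cells that express a gene and less RNA per cell cannot be told apart.

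**Figure D1:**
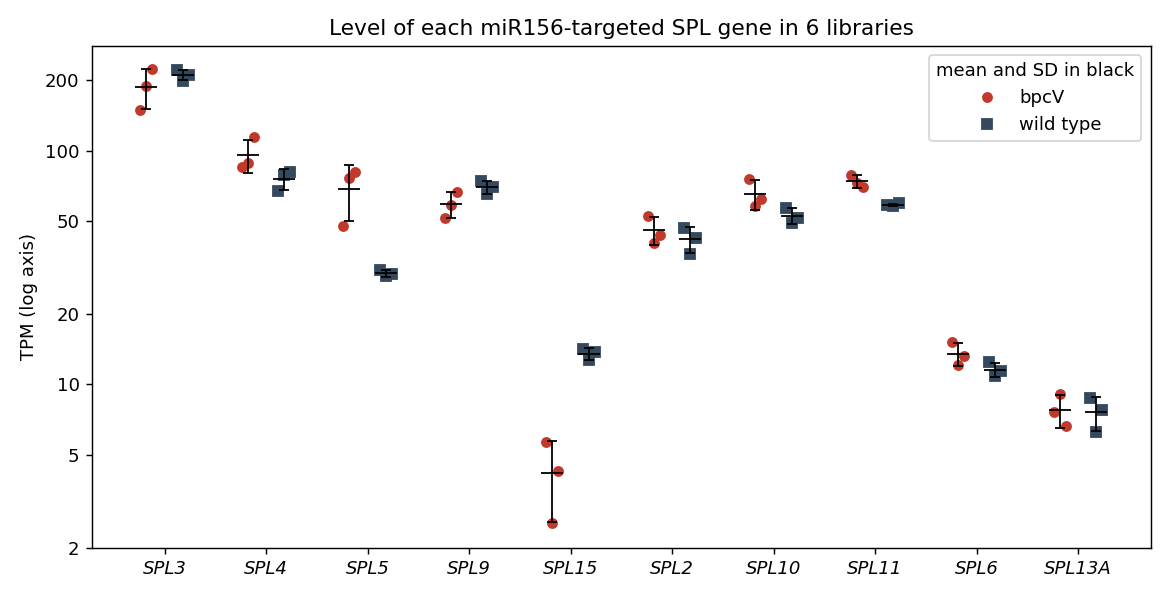
TPM of the 10 members on a log axis, with 3 *bpcV* libraries as circles, 3 wild type libraries as squares, and mean and SD in black. The *SPL5* values of *bpcV* (47.66 to 81.19 TPM) lie above all wild type values, and those of *SPL15* (2.54 to 5.68 TPM) lie below.

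The levels of the members covered a wide range in both genotypes. In *bpcV*, *SPL3* was the most abundant at 187.6 ± 37.0 TPM (SD, n = 3), ahead of *SPL4* with 96.0 ± 15.7 TPM. *SPL11*, *SPL5*, *SPL10*, *SPL9* and *SPL2* followed, with means of 73.9 to 45.7 TPM, and each overlapped with its neighbour. *SPL6* (13.5 ± 1.58 TPM), *SPL13A* (7.78 ± 1.24 TPM) and *SPL15* (4.16 ± 1.57 TPM) came last, without overlap. In wild type, *SPL3* was again first, at 210.6 ± 10.7 TPM (SD, n = 3), ahead of *SPL4* with 75.6 ± 7.53 TPM and *SPL9* with 69.9 ± 4.55 TPM. They were followed by *SPL11* (58.7 ± 0.652 TPM), *SPL10* (52.6 ± 4.04 TPM), *SPL2* (41.7 ± 5.40 TPM) and *SPL5* (29.9 ± 0.950 TPM). The lowest were *SPL15* (13.5 ± 0.788 TPM), *SPL6* (11.6 ± 0.787 TPM) and *SPL13A* (7.58 ± 1.24 TPM). Apart from *SPL4* and *SPL9*, no neighbours in the wild type order overlapped in their 3 values. *SPL5* was thus the fourth of the 10 in *bpcV* and the seventh in wild type, and *SPL15* the last in *bpcV* and the eighth in wild type.

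SPL3, SPL4 and SPL5 promote flowering and floral meristem identity, in part together with the bZIP factor FD. *SPL5* (AT3G15270, chromosome 3 of TAIR10.1 from 5140365 to 5142323, minus strand) had 47.66, 76.33 and 81.19 TPM in the *bpcV* libraries and 30.89, 29.02 and 29.66 TPM in the wild type libraries. Every *bpcV* library was above every wild type library, and *bpcV* replicate 1 was the nearest to wild type. The log2 fold change was 1.20 (standard error 0.190, 95% interval 0.77 to 1.64, FDR 0.00649 by the edgeR test). Without *bpcV* replicate 1 it was 1.41 (FDR 3.01e-05 from the same edgeR test). Without *bpcV* replicate 2 or 3 or any one wild type replicate it stayed between 1.06 and 1.23, but the edgeR FDR was 0.0170 to 0.0400 and the call was lost.

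*SPL4* (AT1G53160, chromosome 1 from 19806263 to 19807705) had 85.32, 88.70 and 113.97 TPM in *bpcV*, against 67.03, 78.73 and 81.09 TPM in wild type. Its 2 groups did not overlap, with the *bpcV* values higher, but the change was not past the threshold (log2 fold change 0.36, 95% interval 0.05 to 0.67, FDR 0.128 from edgeR's test). *SPL3* (AT2G33810, chromosome 2 from 14305001 to 14306072) had 149.80, 189.31 and 223.65 TPM in *bpcV* and 220.76, 199.40 and 211.61 TPM in wild type. The genotypes overlapped, as *bpcV* replicate 1 was the lowest of the 6 libraries and *bpcV* replicate 3 the highest (log2 fold change -0.16, 95% interval -0.49 to 0.17, FDR 0.505 from edgeR's test).

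Within a library the 3 related genes stood in different proportions in the genotypes. The level of *SPL5* was 31.8%, 40.3% and 36.3% of that of *SPL3* in the *bpcV* libraries and 14.0%, 14.6% and 14.0% in the wild type libraries. *SPL5* is thus the least abundant of the 3 in both genotypes, but nearer to the others in *bpcV*. The level of *SPL4* was 57.0%, 46.9% and 51.0% of that of *SPL3* in *bpcV*, against 30.4%, 39.5% and 38.3% in wild type. The 3 genes together summed to 282.8, 354.3 and 418.8 TPM in *bpcV* and 318.7, 307.2 and 322.4 TPM in wild type, which overlap.

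SPL9 and SPL15 act in the shoot apex on leaf and flower initiation and on the transition to flowering, and SPL15 activates *FUL* and *MIR172B* together with SOC1. *SPL15* (AT3G57920, chromosome 3 from 21444243 to 21446035, minus strand) had 5.68, 2.54 and 4.25 TPM in *bpcV*, against 14.18, 12.66 and 13.78 TPM in wild type. All *bpcV* libraries were below all wild type libraries, with 96, 46 and 87 counts in *bpcV* and 305, 229 and 254 counts in wild type. The log2 fold change was -1.71 (standard error 0.236, 95% interval -2.25 to -1.17, FDR 0.00378 by the edgeR test). The value stayed between -1.98 and -1.46 when any one library was left out. The call was lost without *bpcV* replicate 3 or any one wild type replicate, with edgeR FDR values of 0.0196 to 0.0214.

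*SPL9* (AT2G42200, chromosome 2 from 17587169 to 17589671) had 51.63, 58.49 and 66.57 TPM in *bpcV* and 74.50, 65.41 and 69.72 TPM in wild type. The highest *bpcV* library overlapped with wild type, and the difference was not past the threshold (log2 fold change -0.25, 95% interval -0.51 to 0.01, FDR 0.191 from edgeR's test). The level of *SPL15* was 11.0%, 4.34% and 6.38% of that of *SPL9* in *bpcV* libraries, against 19.0%, 19.4% and 19.8% in wild type libraries. *SPL15* was thus lower in *bpcV* relative to its closest relative in the same library. This ratio reuses the *SPL15* values that gave the call and is no separate evidence. The summed level of both genes was 57.31, 61.03 and 70.82 TPM in *bpcV*, against 88.68, 78.07 and 83.50 TPM in wild type, without overlap, and was not tested.

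**Figure D2:**
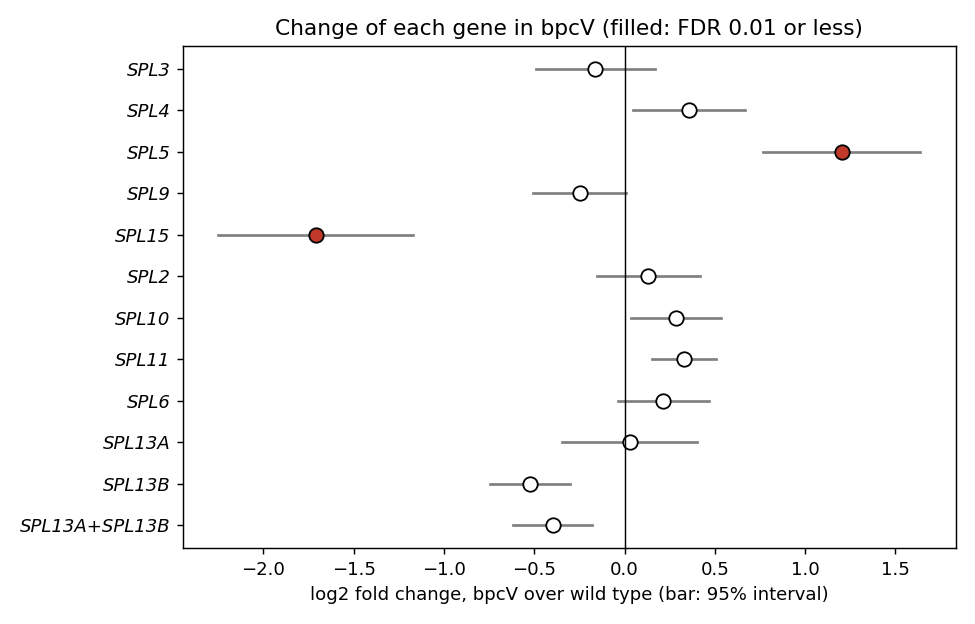
Log2 fold change of *bpcV* over wild type for the 10 members, the copy *SPL13B* and the sum of both *SPL13* copies, with 95% intervals from edgeR's quasi-likelihood test with filled circles for genes past the threshold. *SPL5* (1.20) and *SPL15* (-1.71) are filled and lie farthest from 0 on either side.

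SPL2, SPL10 and SPL11 act redundantly in leaf and flower development, and *SPL10* and *SPL11* are neighbours on chromosome 1, 1088 bases apart. *SPL11* (AT1G27360, from 9500892 to 9504023) had 79.00, 72.49 and 70.12 TPM in *bpcV* and 58.48, 58.27 and 59.49 TPM in wild type. *SPL10* (AT1G27370, from 9505112 to 9508542) had 75.84, 57.74 and 62.11 TPM in *bpcV*, against 57.08, 49.24 and 51.45 TPM in wild type. For both genes every *bpcV* library was above every wild type library, by a small margin in *SPL10*. The log2 fold change was 0.33 for *SPL11* (95% interval 0.15 to 0.50, FDR 0.0307 from edgeR's test) and 0.29 for *SPL10* (95% interval 0.04 to 0.54, FDR 0.131 from edgeR's test), and neither was past 0.01.

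*SPL2* (AT5G43270, chromosome 5 from 17360287 to 17363880) overlapped between the genotypes, with 52.72, 40.47 and 43.78 TPM in *bpcV* and 46.89, 36.12 and 42.22 TPM in wild type (log2 fold change 0.13, 95% interval -0.15 to 0.42, FDR 0.541 from edgeR's test). The 3 genes together summed to 207.6, 170.7 and 176.0 TPM in *bpcV*, against 162.4, 143.6 and 153.2 TPM in wild type, and did not overlap. Neither this sum nor that of *SPL9* and *SPL15* was tested. The share without overlap was not computed for sums of other genes, and for the CPM of single genes it was 35.8% of those tested. *SPL10* stood at 141.9% to 143.9% of the level of *SPL2* in *bpcV* and at 121.7% to 136.3% in wild type. In *SPL6* (AT1G69170, chromosome 1 from 26005068 to 26007368), known for a role in immune signalling, the values were 15.21, 12.09 and 13.24 TPM in *bpcV* and 12.42, 10.87 and 11.41 TPM in wild type. They overlapped (log2 fold change 0.22, 95% interval -0.04 to 0.47, FDR 0.242 from edgeR's test).

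**Figure D3:**
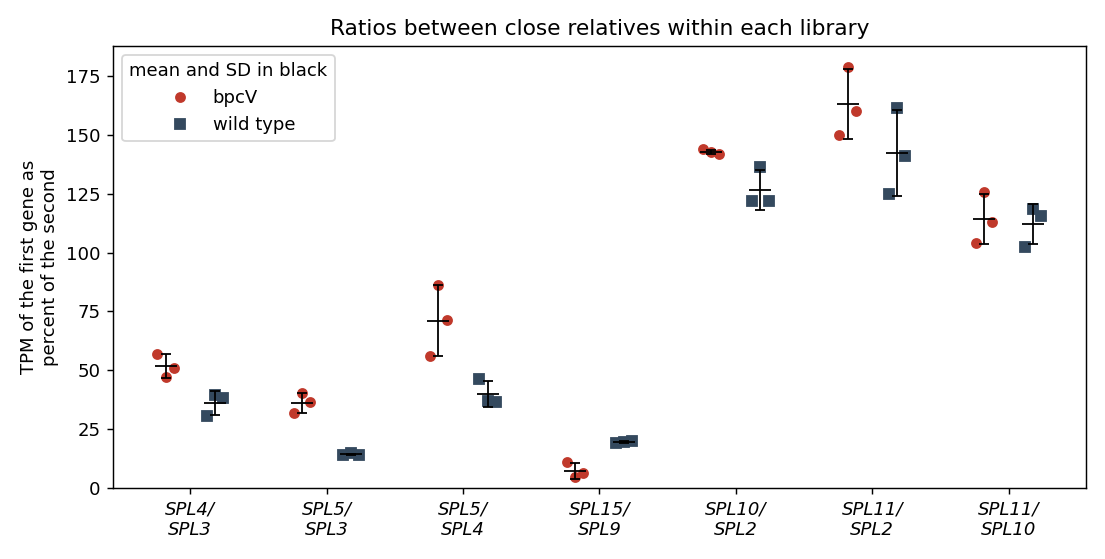
TPM of one gene as a percent of that of a close relative in the same library, for 7 pairs, with *bpcV* libraries as circles, wild type libraries as squares, and mean and SD in black. *SPL5* relative to *SPL3* lies at 31.8% to 40.3% in *bpcV* and near 14.0% in wild type, and *SPL15* relative to *SPL9* at 4.34% to 11.0% in *bpcV* and 19.0% to 19.8% in wild type.

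Such ratios, formed after the values had been seen, do not depend on how the libraries are scaled. Of the 7 ratios within the 3 groups of relatives, 5 did not overlap between the genotypes, and each of these had p = 0.1 in a two-sided exact permutation test (0.14 after Benjamini-Hochberg adjustment over 7). This is the smallest p that 3 libraries against 3 can give, so this test cannot pass 0.05. The share of ratios without overlap over other gene pairs was not computed. For the CPM of single genes it was 35.8% of those tested. The ratios share genes, and those with *SPL5* or *SPL15* reuse the values of the called members. The count of ratios is therefore no separate evidence.

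*SPL13* exists as a pair of copies on chromosome 5, *SPL13A* (AT5G50570, from 20582083 to 20584721) and *SPL13B* (AT5G50670, from 20615565 to 20618063), whose starts are 33482 bases apart. Their 1080 coding bases do not differ at any position, so reads from them cannot be assigned with certainty. The expected counts of both were not whole in all 6 libraries. RSEM gave *SPL13A* 157.5, 202.3 and 166.7 counts in *bpcV* and 230.4, 139.3 and 176.1 counts in wild type, which differed by a log2 value of 0.03 (FDR 0.932, edgeR). It gave *SPL13B* 435.5, 499.7 and 584.3 counts in *bpcV* and 929.6, 676.7 and 678.9 counts in wild type, which differed by a log2 value of -0.52 (FDR 0.0125, edgeR). This copy was past 0.01 with DESeq2 (adjusted p 0.00068) and with the likelihood ratio test of edgeR (FDR 0.000341). Summed over both copies, the counts were 593, 702 and 751 in *bpcV*, against 1160, 816 and 855 in wild type. The sum was lower in every *bpcV* library, at 37.4 ± 2.05 CPM in *bpcV* against 49.4 ± 4.71 CPM in wild type (SD, n = 3 each). CPM are counts scaled to the library total after adjustment by the TMM factor. The log2 fold change of the sum was -0.40 (95% interval -0.62 to -0.18, FDR 0.0322 from edgeR's test) and was not past 0.01. Of the summed counts, *SPL13A* was given 22.2% to 28.8% in *bpcV* libraries and 17.1% to 20.6% in wild type libraries. The RefSeq transcripts of *SPL13A* (2308 bases) and *SPL13B* (1817 bases) extend beyond the coding sequence. Whether reads from those parts tell the copies apart was not examined. The copies taken alone are therefore uncertain, while the sum does not depend on how reads are divided between them.

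Not counting *SPL13B*, the CPM values did not overlap between the genotypes for 5 of the 10 members, 4 with *bpcV* above and 1 with *bpcV* below. Over all genes tested the share without overlap was 35.8%, with 18.2% above and 17.6% below. The *bpcV* libraries were less alike than the wild type libraries. The coefficient of variation of CPM was larger in *bpcV* for 10 of 10 members and for 73.6% of all genes tested. Its medians over the members were 14.7% in *bpcV* and 5.94% in wild type, and over all genes tested 12.7% in *bpcV* and 6.68% in wild type. Among the members, the coefficient in *bpcV* was widest for *SPL15*, at 37.2% in *bpcV* and 4.58% in wild type, and for *SPL5*, at 27.3% in *bpcV* and 2.80% in wild type. Among the *bpcV* libraries, replicate 1 had the lowest CPM of *SPL3*, *SPL4*, *SPL5* and *SPL9* and the highest of *SPL2*, *SPL6*, *SPL10*, *SPL11* and *SPL15*, while replicate 3 was highest for *SPL3*, *SPL4*, *SPL5* and *SPL9*. The 10 members together summed to 570.5, 607.3 and 685.5 TPM in *bpcV* and 590.9, 546.0 and 578.2 TPM in wild type. This total overlapped between the genotypes, and of it *SPL5* made up 10.9% ± 2.25 in *bpcV* and 5.22% ± 0.0928 in wild type (SD, n = 3 each), while *SPL15* made up 0.678% ± 0.293 in *bpcV* and 2.37% ± 0.0427 in wild type.

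Neighbouring genes overlap several members in the annotation, and no source used here states that strand was kept. In RefSeq TAIR10.1, introns included, *SPL5* shares 1959 bases with AT3G15260 and *SPL15* shares 1793 bases with AT3G57910, both on the opposite strand. The counts rest on other gene models. In those the *SPL5* transcript has 897 bases (1872 in RefSeq) and that of *SPL15* 1377 bases (1455 in RefSeq). The overlap within the models used for counting was not determined. The expected counts of *SPL5*, *SPL15* and these neighbours were whole, within 0.005, in all 6 libraries. AT3G15260 had 32.04 to 36.49 TPM in *bpcV* and 31.52 to 35.99 TPM in wild type (log2 fold change 0.03, FDR 0.846 from edgeR's test). AT3G57910 had 5.94, 14.18 and 12.27 TPM in *bpcV*, against 11.29, 12.20 and 11.17 TPM in wild type (log2 fold change -0.09, FDR 0.865 from edgeR's test). It was low in *bpcV* replicate 1, the *bpcV* library with the most *SPL15*. *SPL3* overlaps the antisense gene AT2G33815 over 1046 bases, and its counts were not whole, but AT2G33815 was assigned at most 19.7 counts in any library and *SPL3* held at least 98.9% of their sum. *SPL13A* shares 96 bases with AT5G50565 and *SPL6* shares 19 bases with AT1G69180, both on the opposite strand. AT5G50565 had counts that were not whole in 5 of 6 libraries (log2 fold change -0.12, FDR 0.505 from edgeR's test). Its part in the fractional counts of *SPL13A* was not determined. The counts of AT1G69180 were whole (log2 fold change -0.004, FDR 0.992 from edgeR's test).

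The family members without a miR156 site gave a comparison with the same domain and no pairing to the small RNA. Of these 6 genes, all tested, 0 were past the threshold with edgeR's quasi-likelihood test, with its likelihood ratio test or with DESeq2, and 1 of 6 had an unadjusted p under 0.05, against 28.3% of all genes tested. Their median log2 fold change was 0.19, with a range from -0.13 in *SPL7*, a copper response factor, to 0.30 in *SPL16*. *SPL16* had 15.43, 18.02 and 16.09 TPM in *bpcV* and 14.03, 12.34 and 13.59 TPM in wild type (FDR 0.0718 from edgeR's test). *SPL8*, which acts with the miR156-targeted members in anther and gynoecium fertility, had 31.84, 25.27 and 35.46 TPM in *bpcV*, against 27.43, 24.59 and 28.21 TPM in wild type (log2 fold change 0.20, FDR 0.352 from edgeR's test).

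Apart from *MIR156C*, the precursors of miR156 and miR157 could not be measured in these libraries. Of the 12 *MIR156* and *MIR157* loci, 11 were listed at 0 in every library. Of these, 9 had an effective length of 0 in every library, so that no read could be given to them, and the highest effective length of the other 2 was 8.60 bases. *MIR156C* was the one locus annotated with a longer transcript and had at most 4 counts. Among the *MIR172* loci, which SPL factors activate, 4 of 5 were likewise listed at 0, and *MIR172A* had at most 7 counts. Those 4, *MIR172B* among them, had an effective length of 0 in every library, so they could not be measured either. Mature small RNAs were not measured.

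Of the genes that make or load microRNAs, 7 were tested and 0 were past the threshold with the quasi-likelihood test of edgeR, its likelihood ratio test or DESeq2, while 2 of 7 had an unadjusted p under 0.05, near the 28.3% over all genes. Their log2 fold changes ran from -0.40 in *HYL1* to 0.18 in *HST*, with a median of -0.20. *HYL1*, a double-stranded RNA binding partner of DCL1, had 12.75, 13.60 and 15.39 TPM in *bpcV*, against 18.19, 16.93 and 19.77 TPM in wild type, with no overlap (FDR 0.0469 from edgeR's test). *HST*, known for a role in microRNA export, had 13.23, 11.58 and 11.02 TPM in *bpcV* and 10.63, 10.08 and 10.74 TPM in wild type (FDR 0.233 from edgeR's test).

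Genes that SPL factors act on or act with were measured in the same libraries. Of 10 such genes, 9 were tested, 0 were past the threshold in edgeR's quasi-likelihood test and 3 of 9 had an unadjusted p under 0.05 (28.3% over all genes). DESeq2 called *FT* and *AP1* (8.72% over all genes), and the likelihood ratio test of edgeR also *TRY* (10.7% over all genes). *AP1*, a floral meristem identity gene bound by SPL factors, had 150.88, 177.78 and 164.46 TPM in *bpcV* and 118.97, 121.46 and 113.12 TPM in wild type (log2 fold change 0.48, FDR 0.0154 from edgeR's test). *FT*, the mobile flowering signal that acts upstream of *SPL3*, *SPL4* and *SPL5*, had 38.09, 30.55 and 25.68 TPM in *bpcV*, against 40.62, 51.29 and 52.06 TPM in wild type (log2 fold change -0.61, FDR 0.0404 from edgeR's test). The genotypes did not overlap for either gene, which stood at opposite sides of the list.

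*TRY*, a trichome repressor that SPL9 activates on the inflorescence stem, was lower in all *bpcV* libraries than in wild type (14.91, 12.06 and 16.41 TPM in *bpcV*, against 22.65, 19.74 and 23.94 TPM in wild type, FDR 0.0419 from edgeR's test). *FUL*, which SPL15 activates, had a log2 fold change of -0.02 (76.36 to 92.66 TPM in *bpcV* and 85.13 to 87.43 TPM in wild type). *SOC1*, a MADS-box flowering gene, had 45.9 ± 3.96 TPM in *bpcV* and 53.1 ± 2.87 TPM in wild type (SD, n = 3 each) (FDR 0.182 from edgeR's test). Of the 6 AP2-like genes that miR172 targets, all tested, 0 were past the threshold with edgeR's quasi-likelihood test, its likelihood ratio test or DESeq2, and 2 of 6 had an unadjusted p under 0.05, near the 28.3% over all genes. They ranged from a log2 fold change of -0.60 in *SNZ* to 0.54 in *TOE3*, which had 12.58, 16.66 and 12.80 TPM in *bpcV*, against 10.88, 8.21 and 9.62 TPM in wild type (FDR 0.0510 from edgeR's test).

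**Figure D4:**
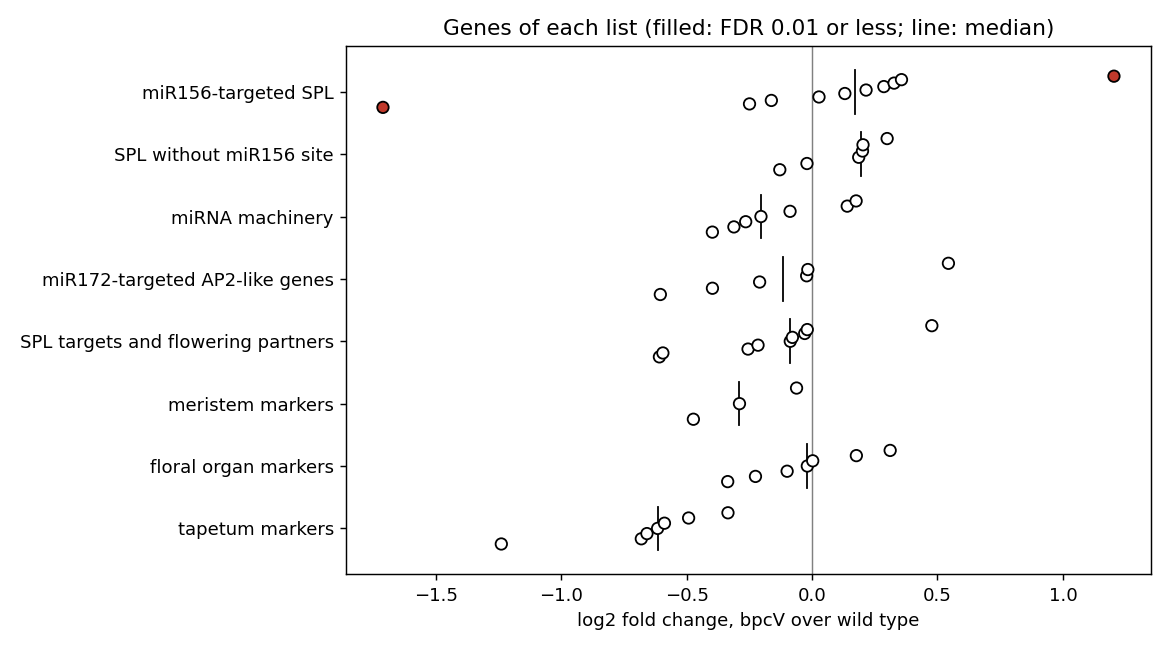
Log2 fold change of *bpcV* over wild type for the tested genes of 8 lists, with a circle for each gene, filled where it was past the threshold, and a line at the median of each list. *SPL5* and *SPL15* are the filled circles, and the 7 tapetum genes all lie below 0.

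Markers of tissues in which *SPL* genes are expressed were set beside these values. The meristem genes summed to 99.2, 65.2 and 85.9 TPM in *bpcV* and 92.2, 98.2 and 95.4 TPM in wild type, which overlap. Their highest log2 fold change was -0.06, in *STM*, and their lowest -0.47, in *WUS*, which had 9.68, 8.58 and 11.51 TPM in *bpcV*, against 12.24, 14.04 and 15.14 TPM in wild type (FDR 0.0751 from edgeR's test). The 7 floral organ genes summed to 561.4 to 667.4 TPM in *bpcV* and 578.0 to 588.3 TPM in wild type, with log2 fold changes from -0.34 in *SHP1* to 0.31 in *AP3*. The 8 late pollen genes summed to 782.0 to 1165.0 TPM in *bpcV* and 1022.5 to 1095.7 TPM in wild type, with log2 fold changes from -0.97 in *HAP2* to 0.36 in *MGH3*. The 4 genes of green tissue summed to 6359.6 to 8270.1 TPM in *bpcV* and 7928.1 to 8488.6 TPM in wild type, which overlap. Among them, *CAB3*, a light-harvesting protein gene with counts that were not whole, was past the threshold (log2 fold change -1.49, FDR 0.000472 from edgeR's test). *CA1*, a carbonic anhydrase gene, had 590.7, 536.5 and 541.0 TPM in *bpcV*, against 474.4, 441.3 and 366.2 TPM in wild type, so every *bpcV* library was above wild type (log2 fold change 0.37, FDR 0.0809 from edgeR's test). *RBCS1A*, which encodes a Rubisco small subunit, had a log2 fold change of -0.03 and overlapped between the genotypes. *RCA*, the remaining gene, had 854.2, 1031.5 and 1043.4 TPM in *bpcV*, against 1341.2, 1230.1 and 1142.2 TPM in wild type. Every *bpcV* library was below wild type (log2 fold change -0.35, FDR 0.111 from edgeR's test). The log2 fold change was negative for 3 of these 4 genes, with a median of -0.19. *CAB3*, *RCA* and *CA1*, 3 of the 4, had an unadjusted p under 0.05 from edgeR's test (28.3% over all genes). The part of these tissues in the changes of *SPL5* and *SPL15* was not tested.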

How the data were processed

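RNA of 3 *bpcV* and 3 wild type inflorescence samples was enriched for poly-A transcripts and sequenced in paired ends. Alignment by the authors used Bowtie2 and the transcriptome of TAIR10, and they deposited, for each library, the expected counts of RSEM (not normalized), TPM values and effective lengths. A further deposited table of scaled values and the authors' own fold changes and p-values was not used. Low genes were removed from the rounded expected counts by filterByExpr, with a minimum count of 10 and a minimum total of 15. After TMM scaling, glmQLFTest (edgeR 4.0.16, R 4.3.3) tested genotype, without other terms. The standard error is the absolute log2 fold change divided by the square root of F, and intervals cover 95%. RSEM divides reads that fit several genes, so near-identical genes cannot be counted apart with certainty. Other scalings, filters, tests, thresholds and summed gene pairs were tried, and each library was left out in turn. limma 3.58.1, DESeq2 1.42.0, Python 3.11.15, scipy 1.17.1 and matplotlib 3.10.9 were also used. Positions and sequences come from RefSeq TAIR10.1, in which 31912 of 32678 identifiers were found. Some RefSeq gene models are longer than those of the files. The members and lists were chosen with earlier results of these data known. All members are named. Of other lists, the genes past the threshold and those with the highest and lowest fold change are named. Added to these were *SPL8*, *AP3* and the other floral organ genes, *STM*, *KNAT1*, *CLV3*, *RBCS1A*, *RCA* and *TRY*. Also added were *FUL*, *SOC1*, *AMS* and *A6*, the *BPC* genes and the neighbours of members.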

Additional observations from a re-analysis of the deposited data

How the results depend on the processing

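The log2 fold changes of *SPL5* (1.06 to 1.41) and *SPL15* (-1.98 to -1.46) kept their direction in 19 alternative fits each, and both were called with DESeq2 and the likelihood ratio test of edgeR. The number of members called was 1 with limma on log2 TPM and a pseudocount of 1 (*SPL15*), 0 with a pseudocount of 0.1, and 0 to 2 when 1 library was left out. *SPL13A*, not called, had a negative log2 fold change after its copy was added (-0.40), without *bpcV* replicate 2 (-0.10) and without wild type replicate 2 (-0.09), and ranged from -0.10 to 0.14 when 1 library was left out. Over all genes, 1814 were called by DESeq2, 2233 by the likelihood ratio test of edgeR, 490 and 329 with limma on log2 TPM and pseudocounts of 1 and 0.1, 2506 at an FDR of 0.05, 434 with a change of 1 or more on the log2 scale also required, and 167 to 1249 when 1 library was left out, lowest without wild type replicate 2 and highest without *bpcV* replicate 1. With the replicate number as a block, 408 genes and 1 member (*SPL15*) were called. Same-numbered libraries deviated together with correlations of -0.03, -0.0038 and 0.19. The libraries of replicate 3 were each other's best match, and the pairs numbered 1 and 2 were not. Whether same-numbered libraries were handled together cannot be told from these values. Summing *SPL3* with AT2G33815 was added after the data were seen and changed no call. *SPL4*, *SPL10* and *SPL11* had 95% intervals, not adjusted for the number of genes, above 0 and were not called. Of the 10 members, 5 had an unadjusted p under 0.05 from edgeR's test, *SPL5* and *SPL15* among them, against 28.3% of all genes tested. Members had 46 to 3112.3 counts in a library, and *SPL15* in *bpcV* rests on the fewest.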
